A study of Mus musculus with 12 samples.

Results

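The genes described here are 9 Rgs genes, Rgs1, Rgs2, Rgs3, Rgs4, Rgs5, Rgs10, Rgs16, Rgs17 and Rgs19, which encode regulators of G protein signalling, measured in pancreatic islets of mice that overexpressed sorcin in beta cells and of control mice. Every probe that either deposited table names as one of the 9 was taken, which gave 21 of the 45281 probes on the array. After a filter on detection 13 of the 21 remained, and each of the 9 genes kept at least 1. The genes were chosen with the comparison of SRI-tg10 and control islets in view, so their differences between those groups are given as a description. No support is drawn from the tests on them.

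RGS proteins bind the active, GTP-loaded alpha subunit of a heterotrimeric G protein and speed up its GTP hydrolysis, which ends the signal of the receptor. Rgs1, Rgs2, Rgs3, Rgs4, Rgs5 and Rgs16 belong to the R4 family, Rgs17 and Rgs19 to the RZ family and Rgs10 to the R12 family. Most act on Gi and Gq alpha subunits, and Rgs2 prefers Gq. In islets these subunits carry signals of acetylcholine, adrenaline, somatostatin and nucleotides to insulin secretion, and several Rgs genes are transcribed in response to cAMP and calcium.

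The SRI-tg10 line held 10 transgene copies, in which a tetracycline-inducible promoter drives sorcin (SRI) cDNA and luciferase. The transactivator was driven by the rat insulin promoter, so doxycycline turned the transgene on in insulin-producing cells. The 6 SRI-tg10 mice and the 6 littermate controls were C57BL/6 males of 8 weeks, given a diet with 60% fat from 4 weeks of age, and drank doxycycline at 500 mg/L for 4 weeks. Each array held RNA of 1 mouse. The titles carry a letter, A or B, of unstated meaning, and each letter covers 3 SRI-tg10 mice (replicates 1 to 3 for A, 4 to 6 for B) and 3 controls numbered in the same way.

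The labels name the material both as islets and as beta cells, and the arrays held RNA of several cell types. Markers of beta cells (9 of 10 listed genes kept, including Ins1 and Ins2), acinar cells (14 of 16), lymphocytes (14 of 18) and macrophages and dendritic cells (14 of 17) were all measured. Between 16271 and 20094 probes were detected per array, and array pairs correlated between 0.918 and 0.983. Sri, the gene of the transgene, lay between 12.72 and 14.96 in SRI-tg10 islets, against 9.60 to 10.09 in controls, on a normalized log2 intensity scale that is used throughout. The difference was 4.67 ± 0.33 (moderated SE, limma adjusted p = 1.53e-05). SRI-tg10 replicate 4 stood apart at 12.72, while the other 5 SRI-tg10 mice lay at 14.81 or more, so differences are also given without that mouse where it moves them. Those 5 mice lay near the top of the normalized scale, 15.17, so the Sri difference can be understated.

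A set of promoters is shown because it covers the member with the largest difference between groups, Rgs2, and the neighbouring genes Rgs4 and Rgs5. Rgs4 and Rgs5 lie next to each other on mouse chromosome 1, and 5 of the 9 genes lie on that chromosome. The sequences are the 250 bases upstream of the annotated start from RefSeq (GRCm38.p6), on the gene's strand: chr1:144004150-144004399 (minus) for Rgs2, chr1:169747643-169747892 (minus) for Rgs4 and chr1:169655251-169655500 (plus) for Rgs5. Capitals mark TGACG, the core of the cAMP response element, and CCAAT, with their reverse forms CGTCA and ATTGG.
Rgs2: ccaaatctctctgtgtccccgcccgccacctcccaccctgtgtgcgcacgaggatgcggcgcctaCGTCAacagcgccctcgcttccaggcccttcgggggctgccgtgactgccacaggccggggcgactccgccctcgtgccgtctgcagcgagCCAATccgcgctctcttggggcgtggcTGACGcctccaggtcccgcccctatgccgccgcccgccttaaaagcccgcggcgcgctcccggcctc
Rgs4: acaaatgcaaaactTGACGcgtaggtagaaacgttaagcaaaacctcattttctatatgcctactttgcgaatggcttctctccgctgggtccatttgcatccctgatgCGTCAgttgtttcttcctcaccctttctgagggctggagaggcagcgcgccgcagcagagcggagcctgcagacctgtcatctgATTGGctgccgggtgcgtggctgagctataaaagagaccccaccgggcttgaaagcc
Rgs5: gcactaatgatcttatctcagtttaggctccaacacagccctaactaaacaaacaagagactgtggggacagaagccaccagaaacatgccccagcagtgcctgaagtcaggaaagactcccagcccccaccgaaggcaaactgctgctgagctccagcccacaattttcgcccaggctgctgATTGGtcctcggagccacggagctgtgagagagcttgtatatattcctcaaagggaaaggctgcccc

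The Rgs2 promoter held TGACG at 185 and 67 bases upstream of the start, the Rgs4 promoter held it at 236 and 141 bases, and the Rgs5 promoter did not hold it in this window. Of all 32851 RefSeq promoters of the same length 17.8% held TGACG on either strand. Among the 8 members with a promoter entry, Rgs2 and Rgs4 were the ones with this motif. CCAAT, a general promoter element, lay in the windows of Rgs2, Rgs4, Rgs5 and Rgs16 and in 33.9% of all promoters. The Rgs2 window also held the GC box GGGCGG 4 times (32.7% of all promoters held it at least once), and Rgs5 held GGAAA, the core bound by NFAT factors, 2 times (55.6% of all promoters). Windows of Rgs3, Rgs10, Rgs16, Rgs17 and Rgs19 held GGGCGG too, and windows of Rgs3 and Rgs19 held GGAAA. These are matches of letters, and the motifs do not overlap one another in the shown windows.

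**Figure D1:**
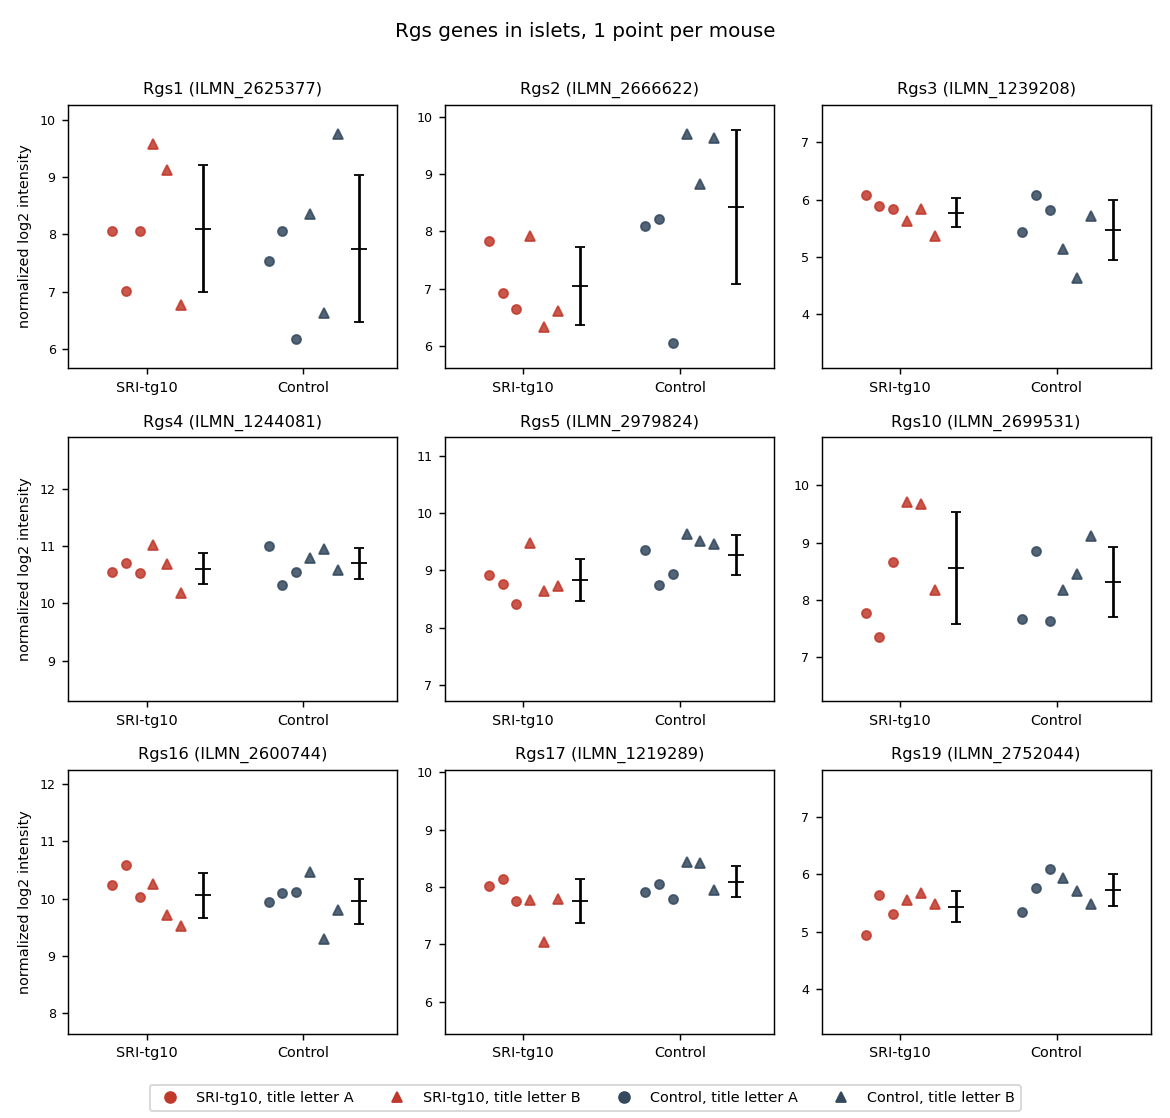
Normalized log2 intensity of the 9 Rgs genes, each on its probe with the highest mean, with 1 point per mouse, SRI-tg10 at the left and control at the right of each panel, circles for title letter A and triangles for B. Crosses with bars give the group mean and SD (n = 6), and every panel spans the same number of log2 units, so that the wide spread of Rgs1, Rgs2 and Rgs10 shows against the narrow one of Rgs4.

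Over the 13 kept probes 8 were lower on average in SRI-tg10 islets and 5 higher, beside 50.7% of all 18315 kept probes that were lower. On the probe with the highest mean, Rgs2, Rgs4, Rgs5, Rgs17 and Rgs19 were lower and Rgs1, Rgs3, Rgs10 and Rgs16 higher. The median difference of the 13 probes was -0.11, beside -0.0036 over all kept probes. None of the 13 passed limma's adjusted p of 0.05 (0 of 13, with adjusted p between 0.922 and 0.985, beside 0.0218% of all kept probes), and 3 had an unadjusted p under 0.05, both probes of Rgs2 and that of Rgs5, beside 4.26% of all kept probes. In 0 of the 13 did the groups of 6 lie apart, beside 0.169% of all kept probes. In bulk islets fewer cells of a type and less RNA per cell cannot be told apart.

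Rgs2, which ends Gq signals and is transcribed in response to cAMP and calcium in many cells, had the largest difference. On its brighter probe (ILMN_2666622) the SRI-tg10 mice of letter A had 7.83, 6.92 and 6.64, against 8.09, 8.20 and 6.06 in the controls of that letter. In letter B the SRI-tg10 mice had 7.92, 6.33 and 6.61, against 9.70, 8.82 and 9.63 in controls. All 6 SRI-tg10 mice lay below the control mean, and 5 of 6 controls lay above every SRI-tg10 mouse; control replicate 3 was the lowest of all 12. The means were 7.04 ± 0.67 in SRI-tg10 islets and 8.42 ± 1.34 in controls (SD, n = 6 each), a difference of -1.37 ± 0.53 (SE, 95% interval -2.52 to -0.23), or 2.59-fold lower. The second probe (ILMN_2480115) gave -1.45 ± 0.55, or 2.74-fold lower, and was detected on 5 of 6 SRI-tg10 and 6 of 6 control arrays.

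On average the gap in Rgs2 was wider in letter B than in letter A, where control replicate 3 lay low. It was -0.32 ± 0.61 (SE) within letter A and -2.43 ± 0.44 within letter B on the brighter probe, and -0.52 and -2.38 on the second. The effect in letter A minus that in letter B was 2.11 ± 0.83 (SE), with an unadjusted limma p of 0.0263 and an adjusted p of 1.00 over all kept probes. Without control replicate 3 the effect in letter A minus that in letter B was 1.42 ± 0.65 (SE). Over both letters the difference was -1.85 without control replicate 3 and -1.12 without control replicate 4. These were the ends of the range over the 12 mice left out in turn. Without SRI-tg10 replicate 4 the difference over both letters was -1.55 ± 0.56 (SE). In the authors' deposited table the log2 fold changes were -1.30 and -1.18, with adjusted p-values of 0.799 and 0.817.

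Rgs5, a regulator of Gi and Gq signals known as a pericyte gene in many tissues, was the other member with an unadjusted p under 0.05. Its SRI-tg10 levels were 8.41 at the lowest, 8.75 at the median and 9.49 at the highest, against 8.75, 9.41 and 9.63 in controls. Of the SRI-tg10 mice 5 lay below the control mean, and replicate 4, the mouse with the lowest Sri of its group, was the sixth. The means were 8.83 ± 0.36 in SRI-tg10 islets and 9.27 ± 0.35 in controls (SD, n = 6 each), a difference of -0.45 ± 0.20 (SE, 95% interval -0.87 to -0.02), or 1.36-fold lower. It was -0.31 ± 0.22 within letter A, -0.58 ± 0.26 within letter B and -0.58 ± 0.17 (SE) without SRI-tg10 replicate 4. The authors' deposited table gives -0.52 (adjusted p = 0.767).

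Rgs5 and Rgs2 were high in overlapping sets of mice. Both were lower on average in SRI-tg10 islets, so pooling the groups can by itself give such an overlap, and nothing is read from it. The 5 mice with Rgs5 at 9.36 or more, 1 SRI-tg10 and 4 controls, had Rgs2 between 7.92 and 9.70. The other 7 mice, with Rgs5 at 8.94 or less, had Rgs2 between 6.06 and 8.20. By a rule added after the data were seen, both genes fell into separate clusters of mice, so no correlation over all 12 is given. The largest gap was 0.343 of the range for Rgs5 and 0.251 for Rgs2, the latter just above the cut of 0.25. Within the 7 mice of the lower Rgs5 cluster the correlation was 0.19 (exact permutation p = 0.693). That cut narrows the range of Rgs5, so nothing is read from this value. Markers of pericytes and smooth muscle were split: 3 of 12 measured genes were higher and 9 lower, beside 50.7% of all kept probes that were lower. Their median difference was -0.14. Their score is the average of their log2 levels after each gene was centred over the mice. It ran from -0.37 to 0.29 in SRI-tg10 islets, against -0.22 to 0.21 in controls. Within the 8 mice of the larger cluster of that score, Rgs5 had a Pearson's r of 0.61 with it (exact permutation p = 0.109). Without the 2 mice farthest from the median score r was 0.40. These mice cover only the upper part of the score, so nothing is read from these r values. The part of these cells in the Rgs5 difference was not tested.

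**Figure D2:**
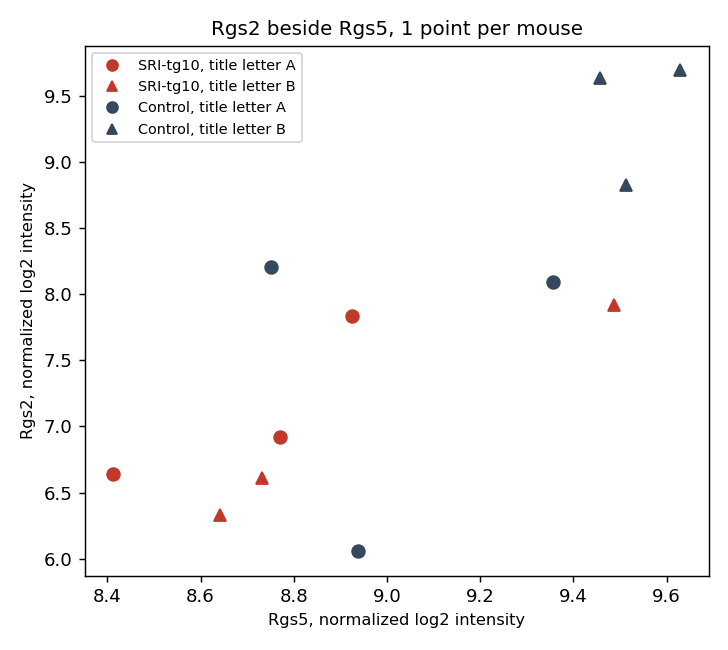
Rgs2 (vertical axis) against Rgs5 (horizontal axis), both as normalized log2 intensity, with 1 point per mouse, red for SRI-tg10 and dark blue for control, circles for title letter A and triangles for B. The 3 controls of letter B have Rgs2 of 8.82 or more, and SRI-tg10 replicate 4 is the SRI-tg10 mouse that lies among the mice with high Rgs5.

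Rgs4, which dampens Gq and Gi signals and is adjacent to Rgs5, was the steadiest member. Its levels were 10.18, 10.61 and 11.01 (lowest, median, highest) in SRI-tg10 islets, against 10.31, 10.68 and 11.00 in controls. The groups overlapped over nearly their whole range. The difference was -0.09 ± 0.16 (SE), with a 95% interval of -0.43 to 0.25. Within letter A it was -0.03 and within letter B -0.14. It was -0.17 ± 0.15 (SE) without SRI-tg10 replicate 4 and -0.0015 without SRI-tg10 replicate 6. Its SD over all 12 mice, 0.26, was the smallest of the 13 member probes, and 67.5% of all kept probes had a larger one.

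Rgs16, an R4 member whose islet expression responds to glucose, was likewise close between groups. SRI-tg10 islets had 9.52, 10.14 and 10.60 (lowest, median, highest), against 9.30, 10.02 and 10.46 in controls. The difference was 0.11 ± 0.21 (SE), 0.067 without SRI-tg10 replicate 4, and it turned to -0.03 without control replicate 5, the lowest mouse. The authors' deposited table has the opposite sign, -0.04. Rgs3, an R4 member with a long and a short form, had 9 probes, of which 1 was kept (ILMN_1239208, detected on 6 of 6 SRI-tg10 and 4 of 6 control arrays). Its levels were 5.36, 5.83 and 6.09 in SRI-tg10 islets, against 4.63, 5.58 and 6.08 in controls, a difference of 0.30 ± 0.22 (SE) that was 0.13 without control replicate 5, the lowest mouse. The other 8 Rgs3 probes were detected on at most 3 of 12 arrays, 2 of them on 0 arrays, and which transcript form each probe reads is not used here.

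Rgs17 and Rgs19, regulators of Gi and Gz alpha subunits, had lower means. In letter B the SRI-tg10 mice had Rgs17 (ILMN_1219289) at 7.77, 7.04 and 7.79, against 8.45, 8.42 and 7.95 in controls, and in letter A they had 8.02, 8.14 and 7.75, against 7.92, 8.05 and 7.79. The groups lay apart in letter B and overlapped in letter A. The difference was -0.34 ± 0.19 (SE) over all mice, 0.052 ± 0.16 within letter A and -0.74 ± 0.27 within letter B, and the difference between those, 0.79 ± 0.32, had an unadjusted limma p of 0.0304 and an adjusted p of 1.00. Without SRI-tg10 replicate 5, the lowest mouse, the difference over all mice was -0.20. The second probe (ILMN_1249809) gave -0.57 ± 0.32 (SE), with -0.23 within letter A and -0.90 within letter B. Rgs19 had 4.94, 5.52 and 5.67 (lowest, median, highest) in SRI-tg10 islets, against 5.34, 5.74 and 6.10 in controls, close to the limit of detection (detected on 4 of 6 SRI-tg10 and 6 of 6 control arrays). All 6 SRI-tg10 mice lay below the control mean, with a difference of -0.29 ± 0.16 (SE).

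In letter B, 4 of the 13 member probes, both of Rgs2 and both of Rgs17, had all 3 SRI-tg10 mice below all 3 controls, beside 6.15% of all kept probes. In letter A it was 0 of 13, beside 3.31%. As these are the comparison the genes were chosen on, nothing is read from the counts.

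**Figure D3:**
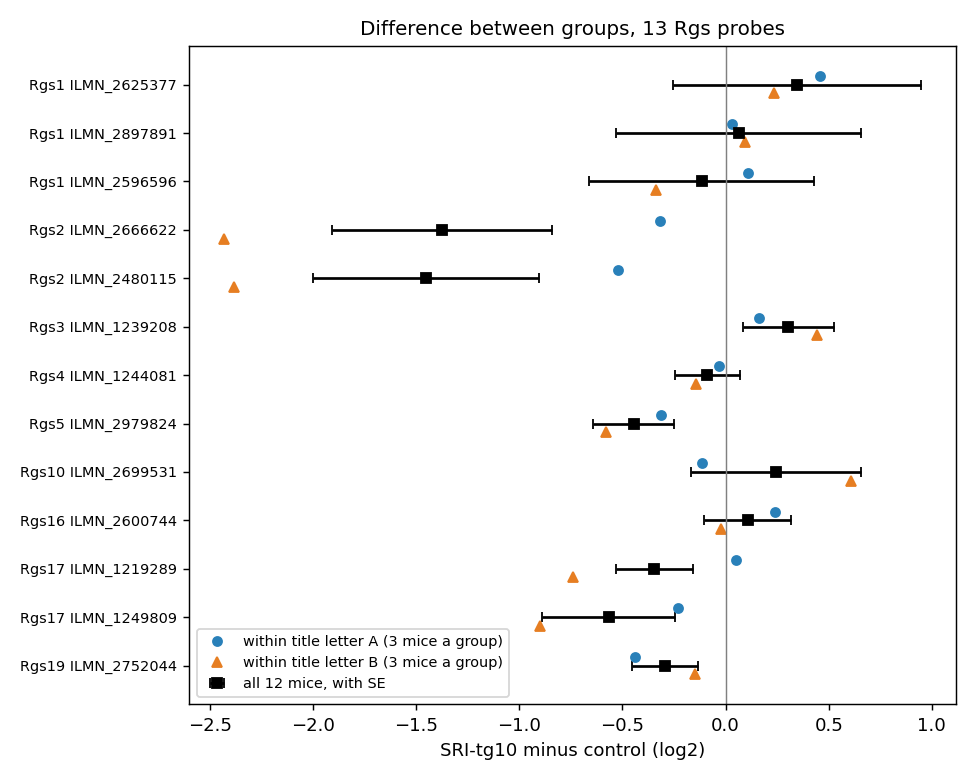
Difference between SRI-tg10 and control islets (horizontal axis, log2) for the 13 kept Rgs probes (1 per line), with black squares and bars for all 12 mice with the SE, blue circles for title letter A and orange triangles for letter B. Both Rgs2 probes lie at -1.37 and -1.45 over all mice and at -2.43 and -2.38 within letter B, while Rgs4 and Rgs16 lie near 0.

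Rgs1 and Rgs10, which are best known from white blood cells, varied among mice of both groups more than between the groups. Rgs1, an R4 member that limits chemokine responses of lymphocytes, had 6.76, 8.06 and 9.57 (lowest, median, highest) in SRI-tg10 islets, against 6.18, 7.79 and 9.75 in controls. Its range over all mice was 3.57 log2 units, and 1.16% of all kept probes had a larger SD. The difference between groups was 0.35 ± 0.60 (SE, 95% interval -0.95 to 1.64) on the brightest probe, 0.06 ± 0.59 and -0.11 ± 0.55 on the others, and on leaving out 1 mouse it ran from 0.03 (without control replicate 3) to 0.75 (without control replicate 6). Without SRI-tg10 replicate 4 it was 0.052 ± 0.59 (SE). The authors' deposited table gives -0.27, -0.40 and -0.47 for the same probes, negative on all 3, where the fit here was negative on 1.

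Rgs10, an R12 member abundant in macrophages and lymphocytes, had 7.36, 8.42 and 9.71 (lowest, median, highest) in SRI-tg10 islets, against 7.64, 8.31 and 9.12 in controls. The SRI-tg10 range enclosed that of the controls. The difference was 0.25 ± 0.41 (SE), and 0.02 without SRI-tg10 replicate 4, the highest mouse. The authors' deposited table gives -0.09. Within letter A it was -0.12, and within letter B 0.61.

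Levels of the members were set against the scores of 10 lists of cell type markers, a score being the average of a list's log2 levels after each gene was centred over the mice. Of the 90 pairs of a member and a list, 49 were taken over all 12 mice. The others were taken within clusters of 7 or 8 mice and had less chance to pass. They include every pair of Rgs2 and Rgs5 and every pair with the lymphocyte, macrophage and pericyte scores. The pairs therefore do not show which cell type a member follows best. Over the 90 pairs, 9 had an unadjusted p under 0.05 and 1 passed an adjusted p of 0.05: Rgs1 rose with the score of stellate cells and fibroblasts (8 genes, among them Dcn, Thy1 and Dpt). Pearson's r was 0.85 (permutation p = 0.00051, adjusted p = 0.0459) and Spearman's rho 0.87 (permutation p = 0.00032, adjusted p = 0.0288) over 12 mice. Without the 2 mice farthest from the median score r was 0.79 (permutation p = 0.00716). It was 0.85 within letter A, 0.89 within letter B, 0.70 within SRI-tg10 mice (exact permutation p = 0.135) and 0.95 within controls (exact permutation p = 0.00694). Rgs10 had an r of 0.71 with the same score (permutation p = 0.0104, adjusted p = 0.344), and 0.83 without the 2 farthest mice. The stellate score ran from -0.56 to 0.69 in SRI-tg10 islets and from -0.95 to 0.81 in controls. Of its 8 genes 6 were higher in SRI-tg10 islets, with a median difference of 0.34 and none past the adjusted p. Over all kept probes 50.7% were lower.

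The immune scores fell into separate clusters of mice, so no correlation over all 12 is given for them. The 5 mice with the highest lymphocyte scores, 0.78 to 2.24, were 3 SRI-tg10 and 2 control mice, and they were also the 5 with the highest macrophage and stellate scores. These mice had Rgs10 between 8.66 and 9.71, against 7.36 to 8.45 in the other 7, so that the 5 mice highest in Rgs10 were the 5 highest in the lymphocyte score. Rgs1 lay between 8.06 and 9.75 in them, against 6.18 to 8.36 in the other 7, with 4 of 5 mice shared. Within the 7 mice of the lower lymphocyte cluster r was 0.04 for Rgs10 (exact permutation p = 0.913) and -0.36 for Rgs1 (exact permutation p = 0.429). These mice cover only the lower part of the score, so nothing is read from these r values. The lymphocyte list had 13 of 14 genes higher in SRI-tg10 islets with a median difference of 0.49, and scores of -1.30 to 2.24 there, against -1.51 to 1.36 in controls. The direction of its genes Cd52, Coro1a and Cd79b differed between the letters: within letter A they were -0.36, -0.37 and -1.45, and within letter B 1.10, 1.44 and 1.35. The macrophage list, which includes Laptm5, Lyz2 and Fcer1g, had 14 of 14 higher with a median of 0.20, and no gene of either list passed the adjusted p. Over all kept probes 50.7% were lower. The same 5 mice had the highest scores of both lists, so the genes counted are not independent observations. Nothing is read from these counts. The part of these cells in the differences of Rgs1 and Rgs10 was not tested.

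**Figure D4:**
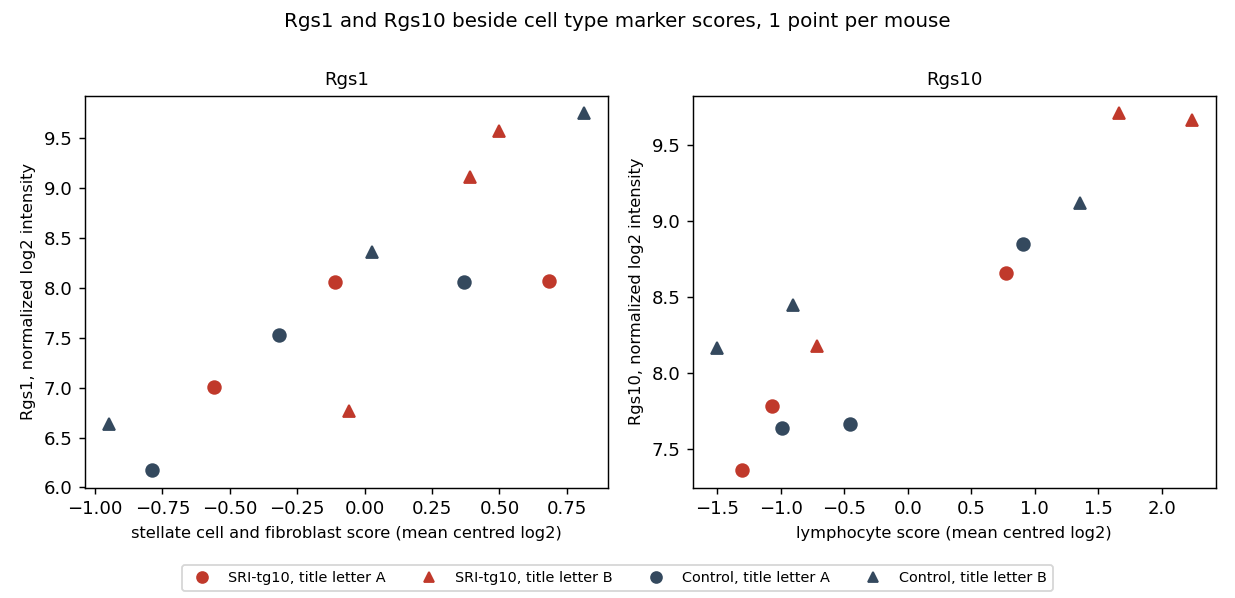
Left, Rgs1 against the stellate cell and fibroblast score; right, Rgs10 against the lymphocyte score, both members as normalized log2 intensity and both scores as mean centred log2 level, with 1 point per mouse (red SRI-tg10, dark blue control, circles letter A, triangles letter B). Mice with a higher stellate score have more Rgs1 (r = 0.85 over 12 mice), and the 5 mice with lymphocyte scores of 0.78 or more have Rgs10 of 8.66 or more.

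Rgs1 also rose with the score of 17 early genes that respond to cAMP and calcium, such as Junb, Nr4a2 and Dusp4, a relation added after the data were seen. Pearson's r was 0.86 (permutation p = 0.00041, adjusted p = 0.00369 over the 9 members) and Spearman's rho 0.81 (permutation p = 0.00231). Without the 2 mice farthest from the median score r was 0.86, and it was 0.95 within letter A, 0.93 within letter B, 0.82 within SRI-tg10 mice (exact permutation p = 0.0611) and 0.89 within controls. The levels of Rgs2, itself known as an early gene of this kind, fell into clusters by the same rule. Within the 7 mice of its larger cluster r was 0.034 (exact permutation p = 0.965). That cut narrows the range of Rgs2, so nothing is read from this r. Of the other members measured over 12 mice, Rgs3 had the highest r, 0.59 (permutation p = 0.0418, adjusted p = 0.188), and it was 0.049 without the 2 farthest mice.

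Among the 7 members whose levels did not fall into clusters, 21 pairs were compared, 0 passed the adjusted p and 1 had an unadjusted p under 0.05. This was Rgs1 with Rgs10, with a Pearson's r of 0.76 (permutation p = 0.00422, adjusted p = 0.0886) and a Spearman's rho of 0.69 (permutation p = 0.0149). The r was 0.73 without the 2 mice farthest from the median, 0.65 within letter A, 0.77 within letter B, 0.86 within SRI-tg10 mice and 0.70 within controls.

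The genes whose pattern over the 12 mice was most like that of a member were named by Pearson's r among 12646 genes, as a description; all points share the arrays and their normalization. For Rgs1 they were C2, a complement component (0.97), Fam102b (0.96) and Nfkbia, an inhibitor of NF-kappaB (0.94). Rgs10 was most like Mpeg1, a macrophage perforin (0.95), Cd3g, a chain of the T cell receptor complex (0.95), and the transporter Slco2b1 (0.95). Cd3g is a gene of the lymphocyte list, and these r values pool the 5 mice with high lymphocyte scores and the other 7. None are given for Rgs2 and Rgs5, whose levels fell into clusters of mice. Rgs4 had Yipf1 (0.89), the endothelial receptor kinase Tek (0.83) and Xpnpep1 (0.83). For Rgs3 they were Eif3f (0.94), Tmbim6 (0.94) and Phc2 (0.93), and for Rgs17 Btbd3 (0.91), Mpp5 (0.88) and Hltf (0.87). Rgs16 had 3110001P07Rik (0.84), Gmeb2 (0.83) and Tnfrsf9 (0.83), and Rgs19 had Sec23ip (0.90), 2310047K21Rik (0.76) and Ipp (0.74).

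The title letters were also compared, with the group as a covariate, a contrast that was not used to choose the genes as far as the sources show. None of the 13 probes passed (0 of 13, limma adjusted p from 0.236 to 0.925, beside 0.0928% of all kept probes), and 3 had an unadjusted p under 0.05, beside 16.8% of all kept probes. These were Rgs10, at -0.89 ± 0.35 for letter A minus letter B (SE, adjusted p = 0.240), Rgs5, at -0.38 ± 0.17 (adjusted p = 0.280), and Rgs3, at 0.48 ± 0.18 (adjusted p = 0.236). Rgs10 averaged 7.99 in letter A and 8.88 in letter B. For the difference of the SRI-tg10 effect between the letters 0 of 13 passed, as did 0 of all kept probes, and the Rgs2 and Rgs17 probes given above were the 2 with an unadjusted p under 0.05, beside 2.33% of all kept probes.

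Of 10 other Rgs genes on the array, 4 had a kept probe. Rgs7, a partner of the beta subunit Gnb5, differed by -0.04 ± 0.14 (SE) between SRI-tg10 and control islets. Rgs9, of the same family, differed by 0.17 ± 0.18 and -0.08 ± 0.32 on its probes, Rgs11 by 0.08 ± 0.39 and Rgs12 by -0.01 ± 0.16. Rgs7bp, which anchors Rgs7 at the membrane, differed by -0.27 ± 0.21. For Rgs6, Rgs8, Rgs13, Rgs14, Rgs18 and Rgs20 no probe was kept.

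The rest of the pathway, taken from 8 lists that include those Rgs genes, showed no gene past the threshold: of 79 measured genes 48 were higher and 31 lower in SRI-tg10 islets, 0 passed limma's adjusted p, and 4 had an unadjusted p under 0.05. Over all kept probes 50.7% were lower and 4.26% had an unadjusted p under 0.05, so nothing is read from these counts. Of 14 receptors coupled to Gi or Gq 8 were higher and 6 lower, with a median of 0.05. The largest gap among them was that of P2ry1, a Gq-coupled receptor for ADP, with 9.42, 10.24 and 10.51 (lowest, median, highest) in SRI-tg10 islets, against 10.19, 10.96 and 11.39 in controls. All 6 SRI-tg10 mice lay below the control mean, with a gap of -0.77 ± 0.25 (SE, limma adjusted p = 0.922). The gap was -0.34 in letter A and -1.19 in letter B. The muscarinic receptor Chrm3 differed by 0.43 ± 0.22, the adenosine receptor Adora1 by 0.23 ± 0.25 and the cannabinoid receptor Cnr1 by -0.17 ± 0.15. Of 5 Gs-coupled receptors 4 were higher and 1 lower (median 0.05), with the incretin receptor Gipr at 0.32 ± 0.30.

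Of 10 alpha subunits, the direct targets of RGS proteins, 6 were higher and 4 lower, with a median of 0.05. Gnai2 differed by 0.24 ± 0.14 (SE), Gnaz by 0.19 ± 0.12, Gna14 of the Gq class by -0.31 ± 0.24 and Gnas, which encodes Gs alpha, by -0.10 ± 0.14. Of 12 beta and gamma subunits 7 were higher and 5 lower (median 0.06). Gnb2, a beta subunit, had 10.11, 10.31 and 10.56 (lowest, median, highest) in SRI-tg10 islets, against 9.76, 9.93 and 10.37 in controls, with all 6 SRI-tg10 mice above the control mean and a difference of 0.31 ± 0.13 (SE, limma adjusted p = 0.922).

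Of 8 effectors, adenylyl cyclases and phospholipase C beta enzymes, 4 were higher and 4 lower (median 0.04). Plcb4, a phospholipase C activated by Gq, had 4.50, 5.12 and 5.61 (lowest, median, highest) in SRI-tg10 islets, against 5.40, 5.84 and 6.56 in controls. It was detected on 3 of 6 SRI-tg10 and 6 of 6 control arrays, and differed by -0.81 ± 0.23 (SE, limma adjusted p = 0.922). The gap was -0.79 in letter A and -0.83 in letter B, and it shrank to -0.47 with an offset of 50 in the normalization and to -0.28 without background correction. Adcy6, an adenylyl cyclase, differed by 0.34 ± 0.27. Of 8 receptor kinases, arrestins and modulators 6 were higher and 2 lower (median 0.10), with the arrestin Arrb2 at 0.32 ± 0.16.

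Of 17 early genes 11 were higher and 6 lower (median 0.09). Dusp4, a phosphatase that inactivates MAP kinases, had 7.35, 7.77 and 8.17 (lowest, median, highest) in SRI-tg10 islets, against 6.84, 7.40 and 7.82 in controls. All 6 SRI-tg10 mice lay above the control mean, with a difference of 0.42 ± 0.18 (SE, limma adjusted p = 0.922), which was 0.25 without background correction. The nuclear receptor Nr4a2 differed by -0.33 ± 0.17 and Crem, a cAMP response element modulator, by -0.20 ± 0.15.

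**Figure D5:**
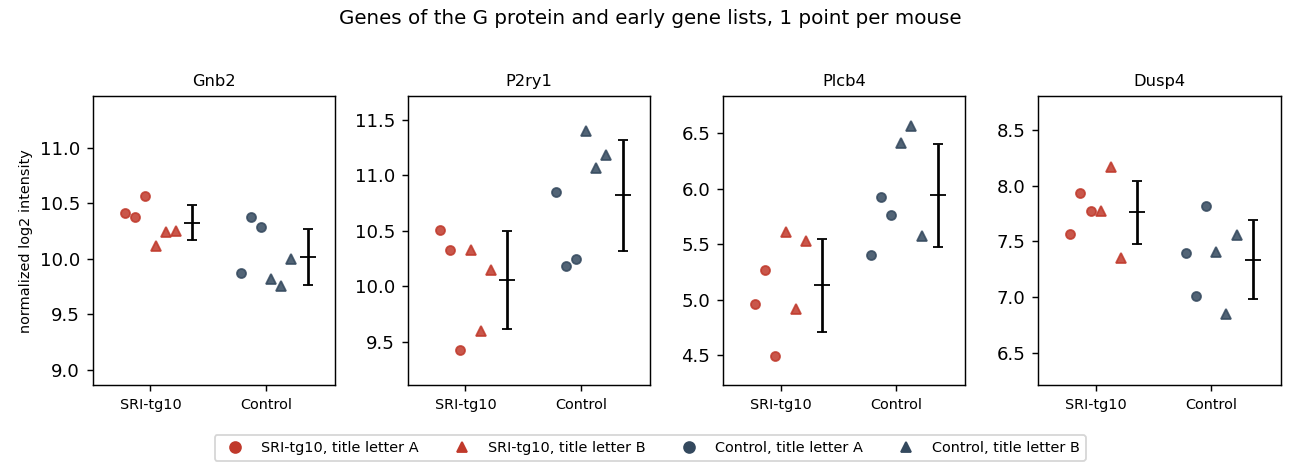
Normalized log2 intensity of the 4 listed genes with an unadjusted p under 0.05, with 1 point per mouse, SRI-tg10 at the left and control at the right of each panel, and crosses with bars for the mean and SD (n = 6). Gnb2 and Dusp4 have higher means in SRI-tg10 islets and P2ry1 and Plcb4 lower ones, and the groups overlap in all 4 panels.

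Of the 21 member probes 19 are listed in the authors' deposited table, 15 of them with a negative log2 fold change and 0 with an adjusted p under 0.05 (lowest 0.767). Among the Rgs3 probes not kept here, ILMN_1241709 stands at 0.35 in the authors' deposited table (adjusted p = 0.767). The sources used here do not give the model behind the authors' deposited table, so values of both sources are set side by side only where each is named; the sign of its fold changes was read by comparing them with the arrays.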

How the data were processed

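Biotinylated cRNA was hybridised to bead arrays, per the labels' protocols, and the submitters' processing notes name GenomeStudio (version not stated). The deposited table holds, per the file headers, the mean intensity of each probe on each array, with a detection p-value; the intensities are linear, with array medians of 127 to 167. The authors' deposited comparison table holds log2 fold changes, a t score and p-values, per the file headers. A further deposited matrix was only checked: of its 12 columns, 10 ranked like the array of another title and 6 like one of the other group. With the titles of the intensities used here, Sri was 12.72 or more on all 6 SRI-tg10 arrays and 10.09 or less on all 6 control arrays. The group labels used here thus match the Sri levels.

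Intensities were background-corrected, quantile-normalized and put on a log2 scale with neqc (offset 16) in limma 3.58.1 under R 4.3.3. A probe was kept where its detection p lay under 0.05 on 6 or more of the 12 arrays, which left 18315 probes of 12647 gene names. Symbols were the updated ones of the authors' deposited table (15799 kept probes), otherwise those of the intensity table. Groups were compared with limma (lmFit, eBayes), with p-values adjusted over all kept probes (Benjamini-Hochberg). Correlations over mice had two-sided permutation tests (100000 resamples, or exact enumeration for 8 mice or fewer); where the largest gap in a score or a member was at least 0.25 of the range with at least 3 mice on each side, the correlation was taken within the larger cluster of the score or, failing that, of the member. The correlation with early genes, the pairs of members and the rule on clusters were added after the data were seen. Simulated arrays were used to check limma.

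The members and gene lists were chosen with earlier results of these data known. Named were all members, Sri, the 3 genes most like each member, up to 2 genes per direction of each pathway list by unadjusted p and the 3 most abundant of each cell type list, not all of which are printed. Levels of different probes were compared only to pick a gene's brightest probe and the most abundant genes of a list. Alternatives were no background correction, another offset, other detection filters, array weights and the title letter as a block or alone. Further ones were each letter alone, each mouse left out, other probes and the authors' deposited table. The number of arrays limits the precision.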

Additional observations from a re-analysis of the deposited data

Results flagged for a closer look

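Rgs17 (ILMN_1219289) was 7.04 in SRI-tg10 replicate 5, away from the other 5 SRI-tg10 mice at 7.75 to 8.14: the gap to its nearest neighbour was 0.653 of the whole range, above Dixon's 95% critical value for 6 samples. It was 1 of 26 groups of member probes examined, and chance gives about 1 in 20. On the second Rgs17 probe (ILMN_1249809) SRI-tg10 replicate 5 was not the lowest mouse, at 6.13 against 5.59 in SRI-tg10 replicate 3.

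The Rgs3 probe ILMN_1241709, left out by the filter on detection, was detected on 3 of 6 SRI-tg10 arrays and on 0 of 6 control arrays. Left-out probes were searched for this direction only, and how many of all probes on the array show it was not counted. The other left-out Rgs3 probes were detected on at most 1 array of each group. Detection calls this close to the limit do not show a difference in level.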

How the results depend on the processing

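No member probe passed the adjusted p in any alternative run (at most 0). The 4 probes past the threshold between the groups were 3 to 5 in the other alternatives and 0 within letter B; leaving out 1 mouse gave 3 to 5. The 17 probes past the threshold between title letters were 9 among probes detected on all 12 arrays, 38 with array weights, 28 with the letter alone without the group, and 4 (without SRI-tg10 replicate 4) to 19 (without control replicate 5) on leaving out 1 mouse. Rgs17 was 0.052 within letter A and -0.74 within letter B. The 1 pair of a member and a marker score past the threshold was 0 without the 2 farthest mice, within letter A, within letter B, within SRI-tg10 mice and within controls; fewer mice enter these tests. Uncalled differences changed sign for Rgs1 (-0.03 with array weights, -0.11 on another probe), Rgs10 (-0.12 within letter A), Rgs16 (-0.02 within letter B) and, for these 3 genes, in the authors' deposited table. Without background correction Rgs2 was -0.94, Rgs19 -0.09, Rgs3 0.10 and Rgs1 0.20. On leaving out 1 mouse the ranges were 0.03 to 0.75 for Rgs1, -1.85 to -1.12 for Rgs2, 0.13 to 0.43 for Rgs3, -0.58 to -0.36 for Rgs5, 0.02 to 0.49 for Rgs10, -0.03 to 0.21 for Rgs16, -0.42 to -0.20 for Rgs17 and -0.37 to -0.19 for Rgs19. The cause was not tested. No paired analysis was possible because nothing in the labels ties a numbered SRI-tg10 mouse to a control with the same number; the title letter as a block left 3 probes past the threshold. Rgs3 and Rgs19 lie close to the limit of detection, and the size of their differences changed with the background correction. For Rgs3 the difference was 0.30 in the main fit, 0.16 with an offset of 50 and 0.10 without background correction. For Rgs19 it was -0.29, -0.17 and -0.09 in the same order. Which of these sizes is closest to the true one was not tested.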
